A study of Mus musculus with 6 samples.

Results

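Genes of prostaglandin synthesis, transport, breakdown and reception were described in 2 populations of mouse mammary carcinoma cells. The genes were Ptgs2, Ptgs2os, Ptgs1, Ptges, Ptges2, Ptger2, Ptger4, Hpgd, Slco2a1 and Pla2g4a, 10 of the 24129 gene names in the table of normalized counts. The 10 genes were chosen on earlier results from the same 6 samples, that is on the normalized counts of T1 and T2 cells themselves, so their differences are given as a description and carry no test. Of the 10 genes, 8 reached the mean of at least 10 normalized counts that a gene needed to enter the comparison, and 2, Ptger2 and Hpgd, had no read in any library.

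RNA sequencing was performed on 3 replicates of T1 cells, labelled 4T1A, and 3 replicates of T2 cells, labelled 4T1NA. Both descend from 4T1GFP, the 4T1 line of BALB/c mouse mammary carcinoma carrying green fluorescent protein (GFP), which had been injected into the mammary fat pad of BALB/c mice, and the labels name no treatment of either population. Both came out of a culture that had been sorted from the primary tumor as GFP-negative, CD140a-positive stromal cells and in which GFP-positive tumor cells then overgrew, so each is a selected and cultured population and not a sample of the whole tumor. T1 cells had low GFP, adherent epithelial morphology and a high proliferation rate, and T2 cells had high GFP, round morphology, loose attachment and a low proliferation rate. Both were grown in DMEM/F-12 with serum, but T2 cells were passaged without trypsin, as suspension cultures are, so this handling and the population cannot be told apart. The parental 4T1GFP cells were not analysed here. The series describes the replicates as independent without naming separate cultures or sorts, and p-values therefore measure only the spread between these samples, which may be technical. The libraries held 18133227 to 20839686 reads on genes, 1 read was worth 0.928 to 1.06 normalized counts, and replicates differed by more than sampling noise (chi-square per degree of freedom of 7.96 or more).

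Prostaglandins are made from arachidonic acid, which phospholipase A2 enzymes cut from membrane phospholipids. The cyclooxygenases PTGS1 and PTGS2 (COX-1 and COX-2) turn arachidonic acid into prostaglandin H2, and terminal synthases such as PTGES and PTGES2 convert that intermediate into prostaglandin E2. The product acts on G protein-coupled receptors, of which EP2 (Ptger2) and EP4 (Ptger4) raise cyclic AMP, and its signal ends when the transporter SLCO2A1 takes it up and the dehydrogenase HPGD oxidizes it. In mammary tumors COX-2 is the inducible enzyme and is studied for its links to inflammation, invasion and metastasis, whereas COX-1 is regarded as the constitutive enzyme.

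The start regions of Ptgs2, Ptgs1 and Ptges are shown because Ptgs2 had the higher level in T1 cells and the other two had the higher level in T2 cells. Each runs 5′ to 3′ from 250 bases before to 50 bases after the transcript start in RefSeq (GRCm38.p6), at chr1:150099781-150100080 on the plus strand for Ptgs2, chr2:36230176-36230475 on the plus strand for Ptgs1 and chr2:30903248-30903547 on the minus strand for Ptges, whose RefSeq start lies inside the longer GENCODE span of the gene. Capitals mark matches to 5 motifs searched on both strands. The half-site TGACG is bound by CREB, the transcription factor downstream of cyclic AMP. The E-box was searched as CACGTG, which MYC and upstream stimulatory factors are known to bind. The C/EBP motif was searched as TTGCGCAA, the palindrome of the CCAAT/enhancer-binding proteins. The TATA box was searched as TATAAA, and the GC box, the known site of Sp1, as GGGCGG. The motifs were chosen after the sequences had been looked at.

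Ptgs2: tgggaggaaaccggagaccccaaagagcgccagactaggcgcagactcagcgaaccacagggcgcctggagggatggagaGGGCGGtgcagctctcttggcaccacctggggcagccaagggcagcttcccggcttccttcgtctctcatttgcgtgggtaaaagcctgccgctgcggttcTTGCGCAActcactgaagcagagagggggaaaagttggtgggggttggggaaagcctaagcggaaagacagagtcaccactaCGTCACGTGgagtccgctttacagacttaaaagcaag

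Ptgs1: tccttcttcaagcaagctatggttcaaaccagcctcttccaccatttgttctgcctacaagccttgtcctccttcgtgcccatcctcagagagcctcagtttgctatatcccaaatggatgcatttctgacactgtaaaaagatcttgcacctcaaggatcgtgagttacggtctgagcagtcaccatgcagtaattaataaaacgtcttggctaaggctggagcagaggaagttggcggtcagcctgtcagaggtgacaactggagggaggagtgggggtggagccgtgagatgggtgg

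Ptges: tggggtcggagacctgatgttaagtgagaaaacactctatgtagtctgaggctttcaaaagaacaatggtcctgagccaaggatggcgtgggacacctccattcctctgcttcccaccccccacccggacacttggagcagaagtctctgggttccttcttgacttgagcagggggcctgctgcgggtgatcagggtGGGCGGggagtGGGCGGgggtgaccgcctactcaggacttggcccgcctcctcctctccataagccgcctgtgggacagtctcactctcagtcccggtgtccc

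The Ptgs2 window held 4 matches. A half-site on the minus strand began at base 14 after the start and overlapped an E-box that began at base 17, a C/EBP motif began at base -69, and a GC box at base -170. The Ptges window held 2 GC boxes, and the Ptgs1 window held 0 matches. Over all 32851 RefSeq start regions of the same length, 20.8% held the half-site, 7.15% the E-box, 0.183% the C/EBP motif, 13.6% the TATA box and 35.7% the GC box. These are matches of letters, at positions counted from the annotated RefSeq start. Neither binding nor the start used in these cells was measured. All 10 genes had a RefSeq start region, and those of Ptgs2 and Ptgs2os share 256 bases because the genes start side by side on opposite strands.

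Cytosolic phospholipase A2, encoded by Pla2g4a, releases the arachidonic acid that both cyclooxygenases use. Pla2g4a (ENSMUSG00000056220.14) is on the minus strand of chromosome 1 (mm10), from 149829618 to 149961290. Its normalized counts were 3228, 3489 and 4683 in the T1 libraries and 1408, 1381 and 1643 in the T2 libraries. The T1 values all lay above the T2 values. The means were 3800 ± 776 and 1478 ± 144 (SD, n = 3 each), a ratio of 2.57, and the log2 fold change of T1 over T2, fitted by limma on log2(normalized count + 1), was 1.35 (standard error 0.13).

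Ptgs2 (ENSMUSG00000032487.8), the gene of COX-2, lies on the plus strand of chromosome 1 from 150100031 to 150108227 and overlaps no other annotated gene. The T1 libraries had 23705, 27579 and 23355 normalized counts, and the T2 libraries had 2290, 5269 and 2329. The lowest T1 library was above the highest T2 library, and T2 replicate 2 stood apart from the other T2 libraries at 2.26 times the higher of them. Mean levels were 24880 ± 2345 and 3296 ± 1709 (SD, n = 3 each), which made a ratio of 7.55, and the log2 fold change was 3.03 (standard error 0.26). Without T2 replicate 2 the ratio was 10.8 and the log2 fold change 3.42, and with each library left out in turn the log2 fold change ran from 2.82 to 3.42. Ptgs2 reads made up 0.124%, 0.142% and 0.121% of all gene reads in the T1 libraries and 0.0119%, 0.0275% and 0.0124% in the T2 libraries. These are bulk samples, in which fewer cells that express a gene and less RNA of it per cell cannot be told apart.

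COX-2 mRNA is known to be short-lived through AU-rich elements, runs of ATTTA in its 3′ untranslated region that RNA-binding proteins recognize. A cluster of these near its start is shown for mouse Ptgs2, from base 12 to base 41 of the 3′ untranslated region of its GENCODE vM21 transcript, with each ATTTA in capitals.

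Ptgs2 cluster: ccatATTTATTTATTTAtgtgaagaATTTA

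The 30 bases hold 4 copies of ATTTA, and the whole 3′ untranslated region of 2445 bases holds 14. As many were found in 3.04% of the 10075 compared genes with a 3′ untranslated region of at least 200 bases, and as many per kilobase in 2.55%. Ptgs1 (921 bases) and Ptges (3106 bases) had 0 copies. Pla2g4a had 4 in 443 bases, a density per kilobase that 0.387% of these genes reached. The other genes, Ptgs2os apart, had from 4 to 6 copies.

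Ptgs2os (ENSMUSG00000097028.2), an RNA with no known protein, starts 68 bases from Ptgs2 and runs the other way, from 150099963 down to 150074873 on the minus strand of chromosome 1, with no overlap between the annotated genes. Its normalized counts were 304.7, 308.8 and 217.6 in T1 cells and 49.0, 57.3 and 60.3 in T2 cells. The lowest T1 value was above the highest T2 value. The means were 277 ± 51.5 and 55.5 ± 5.89 (SD, n = 3 each), a ratio of 4.99, and the log2 fold change was 2.29 (standard error 0.19). T2 replicate 2, which was high for Ptgs2, was not the highest T2 library for Ptgs2os, at 0.951 times the highest of the others. Per kilobase of exon the Ptgs2 level was 73.5, 84.4 and 101 times the Ptgs2os level in the T1 libraries and 44.2, 86.9 and 36.5 times in the T2 libraries.

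The stretch of chromosome 1 around both genes was examined for other transcripts. Within 250 kb of Ptgs2 or Pla2g4a the annotation starts 12 genes that are not among the 10, and 3 of them are in the table. The transcript Ptgs2os2, named here after its values were seen, lies downstream of Ptgs2 on the minus strand. It had normalized counts of 422, 390 and 470 in the T1 libraries and of 40.1, 59.4 and 30.6 in the T2 libraries, and its log2 fold change was 3.32 (standard error 0.23, limma with Benjamini-Hochberg adjustment, adjusted p = 9.17e-07). Pdc and 2310030A07Rik reached at most 1.95 and 0.928 normalized counts. The Pla2g4a start is 138.7 kb from the Ptgs2 start. Pla2g4a, Ptgs2os, Ptgs2 and Ptgs2os2, the 4 genes of this stretch with more than 2 reads in a library, had higher values in T1 cells. The map of the genes around Ptgs2 shows them. Pla2g4a, Ptgs2os and Ptgs2 were chosen on this contrast, and Ptgs2os2 was the only other gene here with enough reads to compare. Among all genes compared, 25.1% passed the 0.01 threshold with the higher level in T1 cells. The shared direction is therefore a description, and whether these genes change together was not tested.

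**Figure D1:**
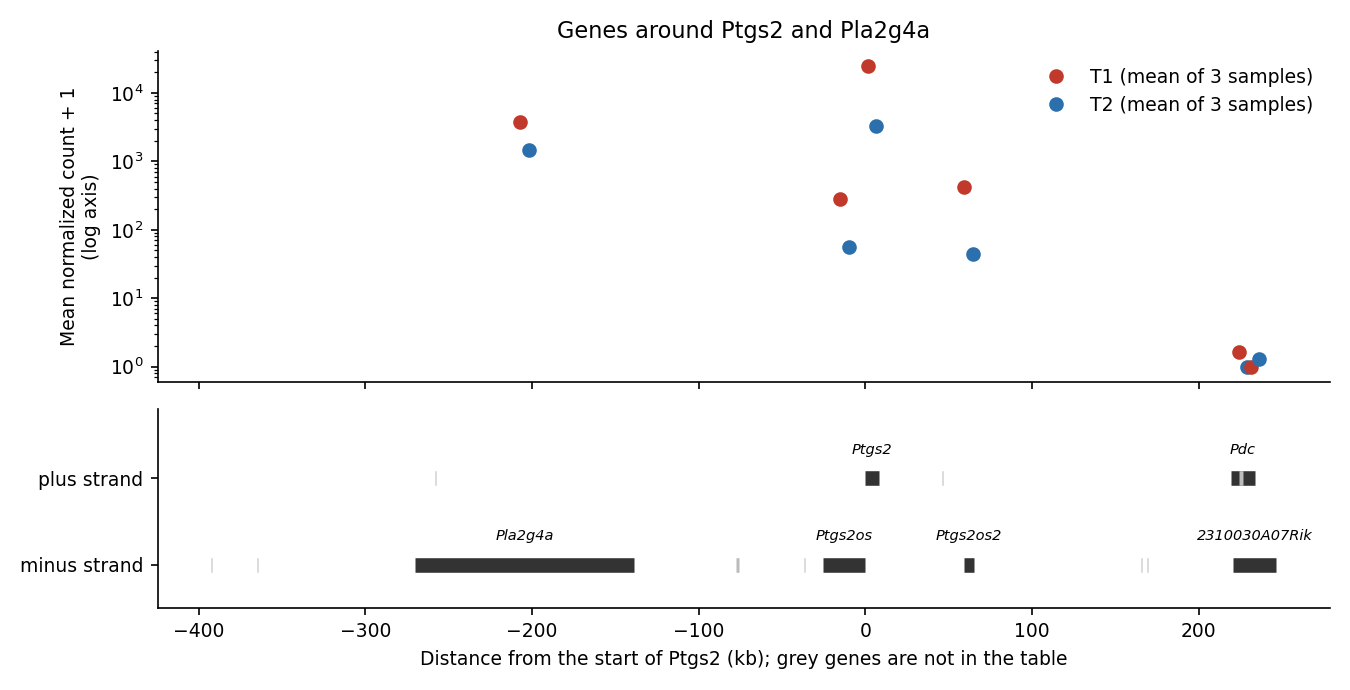
Genes around Ptgs2 and Pla2g4a by distance from the Ptgs2 start in kb. The upper panel gives the mean normalized count plus 1 of the 3 T1 and the 3 T2 samples on a log axis for each gene in the table, set slightly apart, and the lower panel gives each gene's span and strand. Pla2g4a, Ptgs2os, Ptgs2 and Ptgs2os2 have the T1 point above the T2 point, and the 2 genes at the right have almost no reads.

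Ptgs1 (ENSMUSG00000047250.13), the gene of COX-1, lies on chromosome 2 from 36230426 to 36252272 on the plus strand and shares 148 exonic bases with an unnamed transcript on the other strand. Its normalized counts were 710, 567 and 727 in T1 cells and 1809, 1885 and 2846 in T2 cells. All T1 values lay below all T2 values, the opposite order to Ptgs2. The means were 668 ± 87.7 and 2180 ± 578 (SD, n = 3 each), 3.26 times as high in T2 cells, and the log2 fold change was -1.68 (standard error 0.17).

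The balance of the cyclooxygenases was therefore measured per kilobase of exon, the scale on which levels of different genes can be compared. Ptgs2 made up 96.6%, 97.6% and 96.5% of the summed Ptgs1 and Ptgs2 level in the T1 libraries and 51.8%, 70.3% and 41.0% in the T2 libraries. The mean shares were 96.9% ± 0.643 and 54.4% ± 14.8 (SD, n = 3 each). In every T1 library Ptgs2 was the higher of the pair, at 28.3, 41.2 and 27.2 times the Ptgs1 level. In T2 cells the ratio was 1.07, 2.37 and 0.694, so neither gene was the higher in all 3 libraries. The mean T2 share was 46.4% without T2 replicate 2 and 47.9% with the longest transcript of each gene as its length, so the data do not settle which of the pair was the higher in T2 cells.

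**Figure D2:**
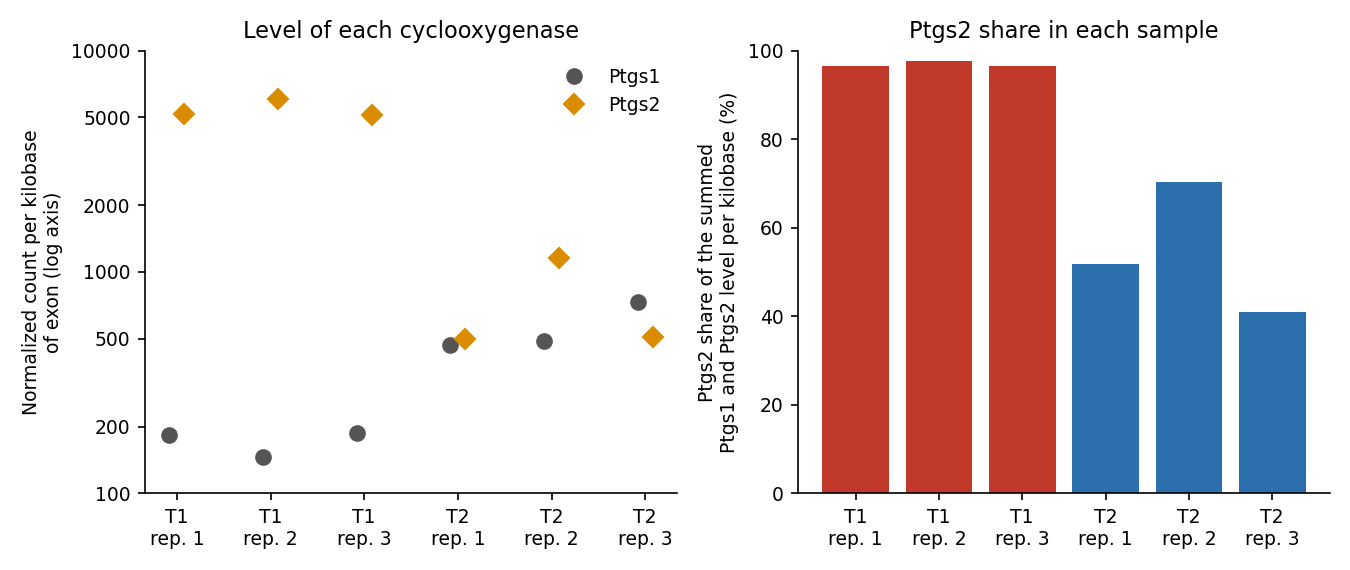
Ptgs1 and Ptgs2 in each of the 6 samples. The left panel gives the normalized count per kilobase of exon on a log axis, and the right panel the Ptgs2 share of the summed level as bars from 0. The T1 bars stand at 96.5% to 97.6% and the T2 bars at 41.0% to 70.3%.

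Of the terminal synthases of prostaglandin E2, Ptges had its higher level in T2 cells and Ptges2 in T1 cells. Ptges (ENSMUSG00000050737.13), which encodes the microsomal synthase usually coupled to COX-2, lies on chromosome 2 from 30889471 to 30929863 on the minus strand. Its normalized counts were 15.9, 19.5 and 36.1 in T1 cells and 181, 191 and 271 in T2 cells. The T1 libraries held only 15, 21 and 37 reads of it, and all lay below the T2 libraries. The means were 23.8 ± 10.8 and 215 ± 49.1 (SD, n = 3 each), 9.0 times as high in T2 cells, and the log2 fold change was -3.18 (standard error 0.30). Leaving out single libraries gave log2 fold changes from -3.51 to -2.94.

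Ptges2 (ENSMUSG00000026820.5) encodes a second membrane-associated synthase that is usually described as constitutive, and lies on chromosome 2 from 32395896 to 32405772 on the plus strand. It had normalized counts of 608, 606 and 575 in the T1 libraries and of 416, 456 and 364 in the T2 libraries. The groups did not overlap, but the ratio of the means was only 1.45, and the log2 fold change was 0.54 (standard error 0.11). Per kilobase, the Ptges2 level was 29.8, 24.1 and 12.4 times the Ptges level in the T1 libraries and 1.79, 1.85 and 1.04 times in the T2 libraries. Divided by the longest transcript of each gene instead, an alternative chosen after seeing the data, the ratio in T2 replicate 3 was 0.984. Ptges2 was thus the higher of the pair under both lengths in the T1 libraries and in T2 replicates 1 and 2, and the order in T2 replicate 3 depended on the length used.

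Slco2a1 (ENSMUSG00000032548.14) encodes the prostaglandin transporter, which carries prostaglandins into cells, and lies on chromosome 9 from 102988712 to 103096002 on the plus strand. It had normalized counts of 3623, 3381 and 4053 in the T1 libraries and of 5255, 5123 and 5791 in the T2 libraries. All T2 values were above all T1 values, by a ratio of the means of 1.46 and a log2 fold change of -0.55 (standard error 0.09). Hpgd (ENSMUSG00000031613.9, chromosome 8 from 56294585 to 56321043, plus strand) encodes the dehydrogenase that starts prostaglandin breakdown and had 0 reads in all 6 libraries. A count of 0 allows up to 3 reads, or 2.78 to 3.17 normalized counts depending on the library, and this limit covers counting error only.

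The receptor genes among the 10, Ptger2 and Ptger4, had few reads or none. Ptger2 (ENSMUSG00000037759.6, chromosome 14 from 44988195 to 45003820, plus strand) had 0 reads in each library, with the same limit of 3 reads. Ptger4 (ENSMUSG00000039942.15), on the minus strand of chromosome 15 from 5206661 to 5244187, had normalized counts of 68.8, 63.2 and 56.6 in the T1 libraries and of 31.3, 43.0 and 22.3 in the T2 libraries. The groups did not overlap, the ratio of the means was 1.95 and the log2 fold change 0.99 (standard error 0.27). Ptger4 shares 82 exonic bases with Ttc33 and 1015 with a processed pseudogene on the other strand, and the library kit does not mark strand, so reads of these genes cannot be told apart there.

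**Figure D3:**
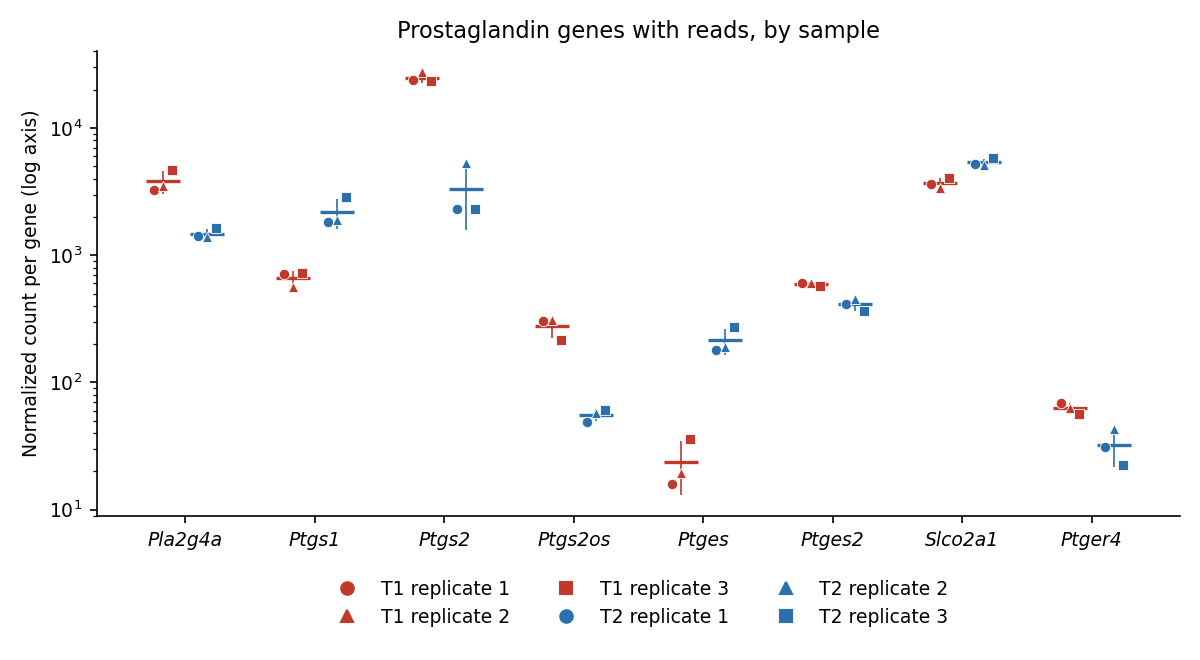
Normalized count of the 8 prostaglandin genes with reads in each of the 6 samples, on a log axis. Points are samples, horizontal lines group means and vertical lines 1 SD. T1 lies above T2 for Pla2g4a, Ptgs2, Ptgs2os, Ptges2 and Ptger4 and below it for Ptgs1, Ptges and Slco2a1. Ptger2 and Hpgd, with 0 reads, are not drawn.

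Ordered per kilobase of exon, the mean T1 levels ran from Ptgs2 (5432 normalized counts per kilobase) over Pla2g4a (595), Slco2a1 (272), Ptgs1 (172), Ptges2 (118) and Ptgs2os (64.0) down to Ptger4 (9.46) and Ptges (6.06). Only the last neighbours in this order, Ptger4 and Ptges, overlapped in their replicate values. In T2 cells the order was Ptgs2 (720), Ptgs1 (561), Slco2a1 (398), Pla2g4a (231), Ptges2 (81.4), Ptges (54.6), Ptgs2os (12.8) and Ptger4 (4.84), and here the replicate values of Ptgs2 and Ptgs1 overlapped. The T2 order at the top rested on the length used. By the longest transcript, again chosen after seeing the data, Ptgs1 (760), Slco2a1 (757) and Ptgs2 (740) had nearly equal T2 means with overlapping replicate values, and Pla2g4a (428) came next. Ptges2 and Ptges then also overlapped in T2 cells, while the T1 order did not change and Ptger4 and Ptges no longer overlapped there. Among 11127 compared genes with a known length, Ptgs2 held places 89 to 107 from the top in the T1 libraries and places 758 to 2144 in the T2 libraries. Ptgs1 moved the other way, from places 4830 to 5479 in T1 cells to 1334 to 2304 in T2 cells.

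Of the 8 genes compared, 5 were higher in T1 cells and 3 lower when the threshold was an adjusted p-value of 0.01, where 25.1% of all 11514 genes were called higher and 24.4% lower. With the study's second filter, an absolute log2 fold change of more than 2, 2 were higher (Ptgs2 and Ptgs2os) and 1 lower (Ptges), against 4.17% and 4.2% of all genes. The T1 and T2 values did not overlap in 8 of 8, against 68.1% of all genes. Since the genes were chosen on this contrast, nothing is read from these counts. The median log2 fold change of all genes compared was -0.0055 and the median of its absolute values 0.45.

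The tests of limma apply to other genes of the pathway, which were listed for their roles and not for their values, although earlier results of these data were known when the lists were made. The lists held 139 genes, of which 138 are in the table and 82 had enough reads, while 26 had no read. With adjustment over the whole table and a threshold of 0.01, 20 were higher in T1 cells, 33 were lower and 29 did not pass, with a median log2 fold change of -0.23. Past both filters there were 4 higher and 8 lower. The plot of fold changes by list shows each of them beside the genes described above.

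**Figure D4:**
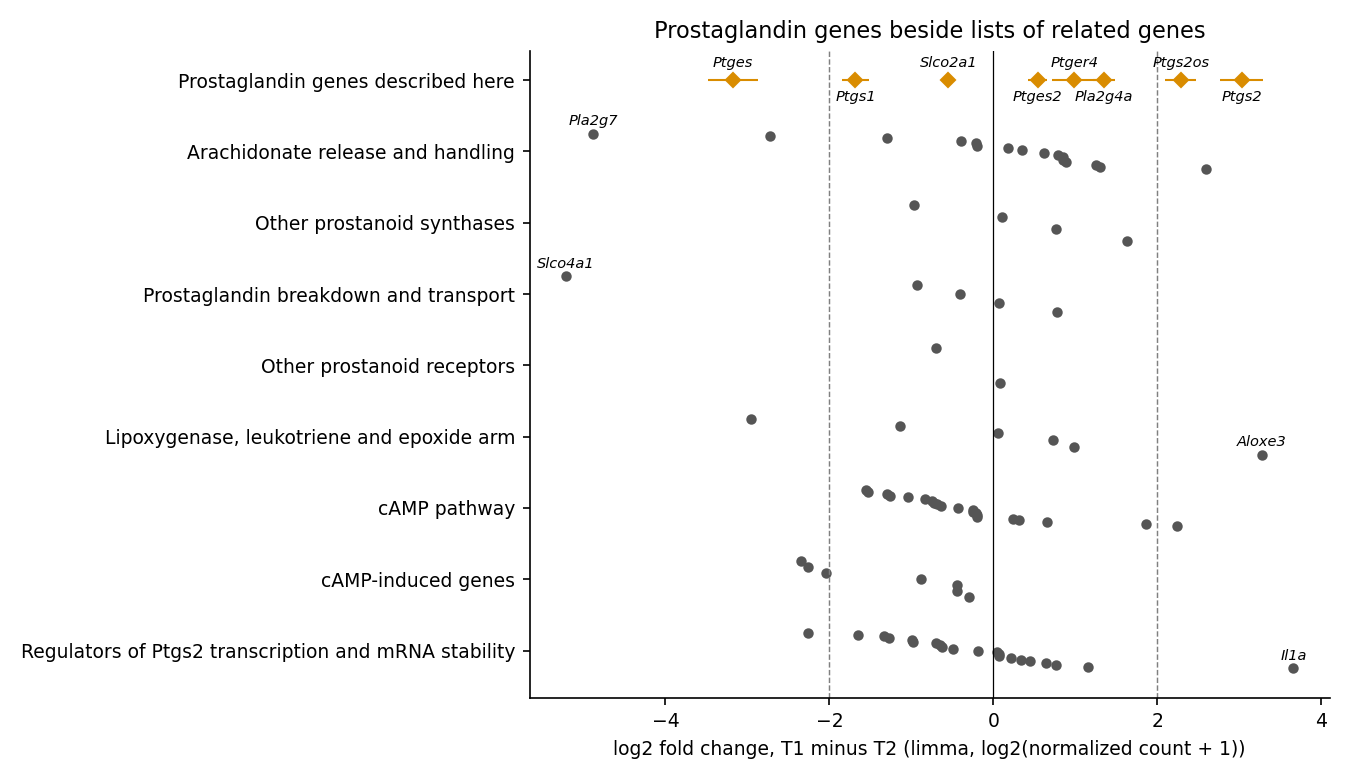
Log2 fold change of T1 over T2 (limma on log2(normalized count + 1)) for the 8 prostaglandin genes with reads, as diamonds with standard errors, and for the 82 listed genes compared, as points in one band per list. Dashed lines mark the study's filter at 2 and -2. The farthest points are Slco4a1 at -5.21 and Pla2g7 at -4.88 on the left and Il1a at 3.66 and Aloxe3 at 3.28 on the right.

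Of 16 genes of arachidonate release and handling that were compared, 8 were higher in T1 cells, 4 were lower and 4 did not pass, with a median of 0.48. Pla2g7, which encodes the secreted phospholipase that breaks down platelet-activating factor, had normalized counts of 80.8 ± 23.2 (T1) and 2370 ± 335 (T2) as mean ± SD of 3 libraries, with a log2 fold change of -4.88 (adjusted p = 1.86e-08, limma). Pla2g7 shares 319 exonic bases with an antisense transcript. Dagla, a diacylglycerol lipase that makes the endocannabinoid 2-arachidonoylglycerol, had a log2 fold change of -2.73 (adjusted p = 5.69e-07, limma), from 467 in T1 cells to 3011 in T2 cells. The phospholipase Pla2g16, also called Plaat3, had 277 in T1 cells and 45.6 in T2 cells, a log2 fold change of 2.59 (adjusted p = 3.74e-06, limma). Acsl4, which couples arachidonic acid to coenzyme A, had a log2 fold change of -1.30 (adjusted p = 1.43e-06, limma). Anxa1, or annexin A1, known as an inhibitor of phospholipase A2, had 26648 and 15469 normalized counts, a log2 fold change of 0.78 (adjusted p = 0.000103, limma).

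The remaining synthases and the genes of breakdown and transport were few. Of 11 other prostanoid synthases 4 were compared, 2 of them higher and 1 lower in T1 cells, with none past both filters and a median of 0.44. Ptges3, the cytosolic prostaglandin E synthase that is also the co-chaperone p23, had mean normalized counts of 4171 in the T1 libraries and of 2456 in the T2 libraries, a log2 fold change of 0.77 (adjusted p = 6.61e-05, limma). Akr1b3, an aldose reductase that can make prostaglandin F2α, had 356 and 114, a log2 fold change of 1.63 (adjusted p = 2.67e-06, limma). Of 5 genes of breakdown and transport compared, 1 was higher and 2 were lower, with a median of -0.41. Slco4a1, an organic anion transporter for which prostaglandin E2 and thyroid hormone are known substrates, had normalized counts of 54.0, 47.4 and 57.6 in the T1 libraries and of 1769, 2066 and 2172 in the T2 libraries, a log2 fold change of -5.21 (adjusted p = 1.85e-09, limma). Zadh2, a prostaglandin reductase, had a log2 fold change of -0.93 (adjusted p = 0.000136, limma).

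Of the 8 other prostanoid receptor genes listed, 2 were compared, of which 1 was lower in T1 cells and 1 did not pass, and 3 had no read. Ptgfrn, which encodes a protein that binds the prostaglandin F receptor and is no receptor itself, had 8303 and 7845 normalized counts and a log2 fold change of 0.08 (adjusted p = 0.381, limma).

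Genes of the cyclic AMP pathway, which EP2 and EP4 feed, were lower in T1 cells in 10 of the 21 compared, higher in 3 and not past the test in 8, with a median of -0.44. The phosphodiesterase Pde4d, which breaks cyclic AMP down, was the gene past both filters, with mean normalized counts of 114 in the T1 libraries and of 23.4 in the T2 libraries and a log2 fold change of 2.24 (adjusted p = 7.14e-06, limma). Gnai2, an inhibitory G protein subunit, had a log2 fold change of -0.69 (adjusted p = 2.3e-05, limma). Gnas, the stimulatory subunit, had -0.21 (adjusted p = 0.0386, limma), which did not pass 0.01.

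Of 8 genes known to be induced by cyclic AMP 7 were compared, of which 4 were lower in T1 cells, 0 were higher and 3 did not pass, with a median of -0.89. All 7 fold changes were negative in limma, edgeR and DESeq2, so by each tool 0 were higher at an unadjusted p-value of 0.05 too. For Sik1, Per1 and Dusp1, however, the negative sign rested on T2 replicate 2. Sik1 had 955, 1426 and 969 normalized counts in the T1 libraries and 962, 4119 and 846 in the T2 libraries. Per1 had 413, 414 and 385 against 475, 1085 and 319, and Dusp1 1526, 3042 and 1940 against 1773, 4732 and 1976. Areg, or amphiregulin, a ligand of the epidermal growth factor receptor, had normalized counts of 808 ± 78.7 (T1) and 4147 ± 688 (T2) as mean ± SD of 3 libraries, with a log2 fold change of -2.35 (adjusted p = 1.43e-07, limma). The nuclear receptor gene Nr4a2 had a log2 fold change of -2.04 (adjusted p = 0.00303, limma) and the AP-1 gene Fos one of -2.26 (adjusted p = 0.00815, limma). Neither call held when each library was left out in turn. Nr4a2 was not past both filters without T1 replicate 1 (-1.94), T1 replicate 3 (-1.95) or T2 replicate 2 (-1.35), and Fos was not past them in edgeR or DESeq2 (-1.73 in each) or when any library other than T1 replicate 2 was left out, with log2 fold changes from -3.12 without T1 replicate 2 to -1.53 without T1 replicate 1. Dusp1, a phosphatase of MAP kinases, had a log2 fold change of -0.29 (adjusted p = 0.477, limma).

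The library in which Ptgs2 was high among T2 cells was also high for these genes, a pattern noticed after the values were seen. T2 replicate 2 was the highest T2 library for 8 of the 8 cyclic AMP-induced genes, where it was the highest for 33.6% of all genes compared. It had at least 1.5 times the next T2 library in 6 of the 8, against 2.15% of all genes. Its ratio to the next T2 library was 4.28 for Sik1, 3.86 for Nr4a2, 2.40 for Dusp1, 2.29 for Per1, 1.72 for Nr4a1, 1.30 for Fos and 1.13 for Areg. For Nr4a3 it was 8.99, on 43 reads against 5. Among the prostaglandin genes only Ptgs2 passed 1.5 times in this library. T1 replicate 2 was the highest T1 library for 7 of the 8 genes, against 29% of all genes, but mostly by less. Its ratio to the highest other T1 library was 3.92 for Fos, 1.57 for Dusp1 and 1.47 for Nr4a2 and for Sik1. It was 1.15 for Areg, 1.09 for Nr4a1, 1.003 for Per1 and 0.879 for Nr4a3, so only Fos and Dusp1 passed 1.5 times. T1 replicate 2 also had the highest Ptgs2 value of the T1 libraries, at 1.16 times the next. The excess in T2 replicate 2 was not confined to cyclic AMP-induced genes. Some listed regulators of Ptgs2 had it too. T2 replicates 1, 2 and 3 had 906, 3043 and 1037 normalized counts of Zfp36, 2675, 6081 and 2669 of Egr1, and 5562, 11613 and 6043 of Jun. Zfp36l1 (1433, 2642 and 1557) and Cebpb (4849, 7450 and 3245) had it as well. Other regulators did not have it, and for Il1r1 (398, 363 and 459) and Tia1 (1304, 1126 and 1425) T2 replicate 2 was the lowest T2 library. The labels give no difference between the replicates, and what set T2 replicate 2 and T1 replicate 2 apart was not tested.

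**Figure D5:**
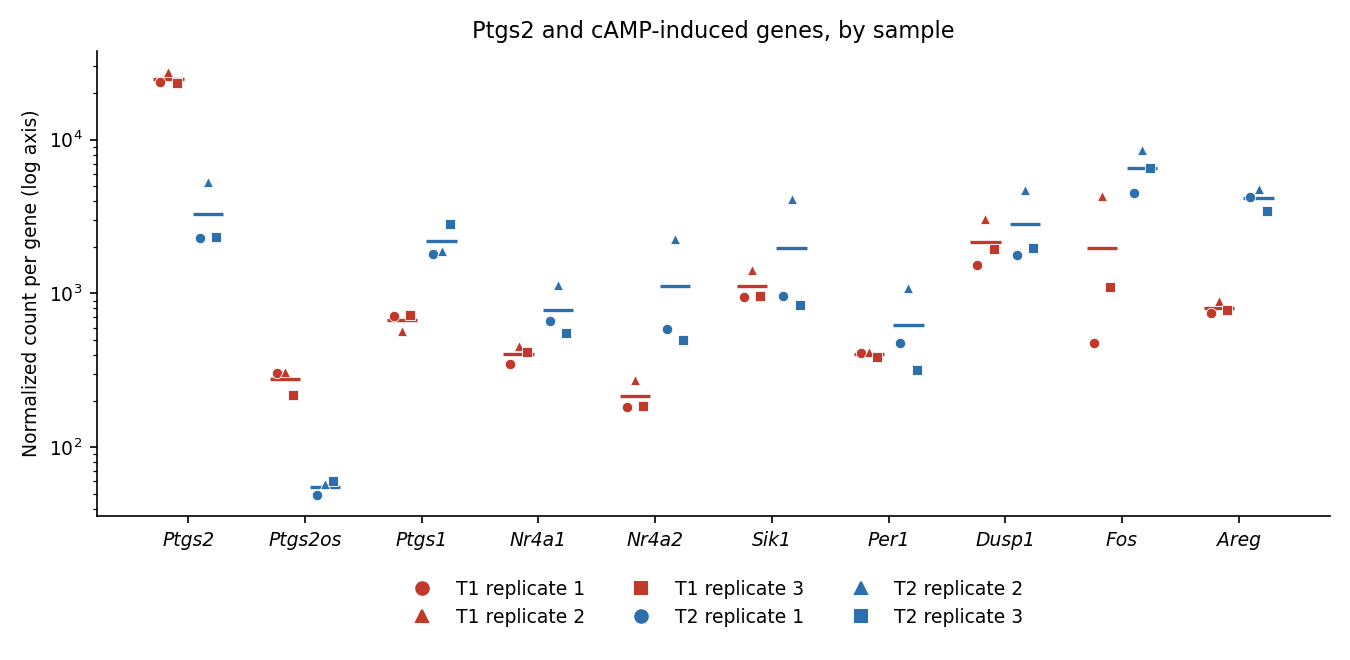
Normalized count of Ptgs2, Ptgs2os, Ptgs1 and 7 cyclic AMP-induced genes in each sample, on a log axis, with lines at group means. Triangles are replicate 2. The blue triangle is the highest T2 point for Ptgs2 and all 7 induced genes and not for Ptgs2os or Ptgs1.

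Regulators of Ptgs2 transcription and mRNA stability were mixed. Of 21 compared, 4 were higher in T1 cells, 9 were lower and 8 did not pass, with a median of -0.18. Il1a, the gene of interleukin-1 alpha, a cytokine that induces Ptgs2, had normalized counts of 70.9, 84.6 and 98.6 in the T1 libraries and of 4.90, 5.12 and 7.42 in the T2 libraries, a log2 fold change of 3.66 (adjusted p = 2.46e-06, limma). Il1a shares 222 exonic bases with a transcript on the other strand. Egr1, an immediate early transcription factor, had a log2 fold change of -2.26 (adjusted p = 0.0015, limma) and was not past both filters without T1 replicate 3 (-1.67) or T2 replicate 2 (-1.86). Zfp36l2, a member of the family of proteins that bind AU-rich elements and shorten mRNA life, had mean normalized counts of 6741 in the T1 libraries and of 21380 in the T2 libraries, a log2 fold change of -1.65 (adjusted p = 1.58e-06, limma). Hnrnpd, another protein that binds these elements, had a log2 fold change of 0.07 (adjusted p = 0.466, limma). Gnas, Dusp1, Zfp36l2 and Hnrnpd also share exonic bases with transcripts on the other strand.

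The genes whose 6 values were most like those of Ptgs2, by the Euclidean distance of the log2 values after each gene's mean was subtracted, included Mcc (distance 0.32) and 6030419C18Rik (0.38), the closest of all genes compared. Both had their highest T2 value in replicate 2, as Ptgs2 did, but the choice by distance over these same values favours such genes. For 6030419C18Rik that value was 11 reads, against 5 and 5 in T2 replicates 1 and 3. Ptgs2os held place 125 in this order, at a distance of 1.34. For Ptges the closest genes were 9430018G01Rik (0.37), Ccng2 (0.39) and Arhgap6 (0.41). Hpgd, without reads, has no such order.

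Markers of other cells that make or sense prostaglandins were read in the same libraries. Krt8 and Krt18, keratins of carcinoma cells, had 17357 to 25833 normalized counts in all 6 libraries, whereas Epcam had 2931 to 3502 in T1 cells and 30.7 to 37.2 in T2 cells and Cdh1 13726 to 15461 and 453 to 484. Among these markers the label of carcinoma cells thus rests on the keratins in T2 cells, besides the GFP by which the cells were sorted. The 5 mast cell markers were at 0 in every library. Of 8 leukocyte markers 2 (Tyrobp and Adgre1) were at 0, the highest apart from Cd68 reached 12.1 normalized counts, and the list summed to 60.3 to 95.6 in T1 cells and 92.8 to 126 in T2 cells. Of 9 fibroblast markers, 4 (Col3a1, Lum, Pdgfrb and Thy1) were at 0 and Col1a1 reached at most 27.9. Their sum was 225 to 241 in T1 cells and 997 to 1297 in T2 cells, nearly all of it Pdgfra, the gene of CD140a. Col1a1 (14.8 to 27.9 in T1 cells and 0 to 0.979 in T2 cells) and Col1a2 (4.23 to 11.7 and 0) went the other way, on few reads. Of 6 endothelial markers Kdr was at 0, and the sums of 1381 to 1556 and 1136 to 1219 were nearly all Eng. Epcam, Cdh1 and Pdgfra differed between the populations together with the prostaglandin genes, and their part in the results was not tested.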

How the data were processed

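RNA from 3 replicates each of T1 and T2 cells was sequenced after poly(A) selection with the TruSeq RNA V2 kit, which does not mark strand. The authors trimmed reads with Trimmomatic, aligned them to mm10 with TopHat2, counted them with HTSeq and divided the counts by DESeq2 size factors. The deposited signal is thus a normalized count, as the authors made it. Tool versions, annotation and the strand setting of the counting are not given in the sources used here. Up to a tolerance of 0.1, 100% of the deposited values were whole reads.

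The 10 genes and all lists were chosen with earlier results of these data known. Genes whose mean reached 10 normalized counts were fitted in R 4.3.3 by limma 3.58.1, on log2(normalized count + 1) and with a variance trend and Benjamini-Hochberg adjustment over all 11514 genes. Adding the pseudocount of 1 understates the change of low genes. Called genes had an adjusted p-value under 0.01, and, for both filters, an absolute log2 fold change above 2, as in the study. DESeq2 1.42.0 and the edgeR 4.0.16 quasi-likelihood test were run on the recovered reads. The other alternatives were pseudocounts of 0.5 and 5, no filter or a mean of 50, quantile and TMM scaling, wider filters, a replicate block and the omission of each library. The fits were tested on simulated data. Positions and union exon lengths came from GENCODE vM21 (mm10), in which 23103 names had a length, and promoters from RefSeq. From each list the text names genes past both filters (at most 6) and the 2 most abundant. Other named genes are said to be chosen later, and 2 genes that these rules name are not reported here. Figures were drawn with matplotlib 3.10.9. Intervals and floors cover counting error only. The number of unused value columns was 0.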

Additional observations from a re-analysis of the deposited data

How the results depend on the processing

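Of the alternatives for results that answer a comparison, 125 left the result unchanged and none reversed it. Unchanged meant counts within 1.5 times and shares within 1 SD of the replicates. For Ptgs2, Ptgs1, Ptges and Pla2g4a it meant a log2 fold change of the same direction, moved by less than the pooled replicate SD. The 125 include the mean T2 Ptgs2 share, which crossed 50%, from 54.4% to 47.9% with longest transcripts and to 46.4% without T2 replicate 2. Wider filters (0.05 and 1) called 1135 genes as higher and 1310 as lower in T1 cells, against 480 and 484, and 9 and 18 pathway genes against 4 and 8. The 4 pathway genes higher in T1 cells became 2 with a mean of at least 50 (without Aloxe3 and Il1a) and 8 with no filter on low values. Leaving out each library gave 5 to 8 pathway genes lower in T1 cells, with 5 without T1 replicate 3 or T2 replicate 2, which lost Egr1, Fos and Nr4a2, and 4 to 5 higher. With longest transcripts the mean T1 share was 95.9%, and, as an alternative chosen after seeing the data, the ratio of Ptges2 to Ptges in T2 replicate 3 went from 1.04 to 0.984. edgeR called 486 and 488 genes, of which 479 and 477 were also called by limma, and DESeq2 487 and 487, of which 478 and 478 were.

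The replicate block gave 481 genes higher and 486 lower, 4 and 8 pathway genes, and a Ptgs2 log2 fold change of 3.03. Deviations of same-numbered samples correlated at 0.0575, 0.172 and 0.104, of which 2 passed 0.1. These values do not settle whether the numbers pair the samples. The labels name no pairing, so the main fit did not pair them. As a hint from the data and not from the design, 5 of the 6 samples correlated best with their own number, and T2 replicate 1 with T1 replicate 3 (0.0719). Depth limits Ptger2 and Hpgd, with 0 reads, and Ptges in T1 cells.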

Other observations

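The arm of arachidonate metabolism that leads to leukotrienes and epoxides was sparse in both populations. Of 22 listed genes 6 were compared and 4 had no read in any library. Of the 6, 2 were higher in T1 cells and 2 lower at an adjusted p-value under 0.01, with a median log2 fold change of 0.39. Lta4h, the hydrolase that makes leukotriene B4, had mean normalized counts of 1836 in the T1 libraries and of 1115 in the T2 libraries, a log2 fold change of 0.73 (adjusted p = 0.000161, limma). Mgst2, a microsomal glutathione transferase that can make leukotriene C4, had normalized counts of 128, 134 and 143 in the T1 libraries and of 1153, 882 and 1160 in the T2 libraries, a log2 fold change of -2.96 (adjusted p = 5.75e-08, limma). Mgst3, a relative of it, had a log2 fold change of -1.13 (adjusted p = 2.59e-05, limma). Aloxe3, an epidermal lipoxygenase, had 22.2, 23.3 and 23.4 normalized counts in T1 cells against 1, 1 and 3 reads in the T2 libraries, with a log2 fold change of 3.28 (adjusted p = 8.04e-05, limma) that depends on the pseudocount. Over all libraries its read ratio was 13.98 (exact binomial 95% interval 5.71 to 44.4, counting error only). Alox5, the enzyme of the first leukotriene step, had 0 reads in each library, which allows up to 3 reads.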
